A study of Homo sapiens with 17 samples.

Results

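The RNA response of KYSE140 cells to 6 h of the BET degrader ARV-771 was described across all genes. KYSE140 is an esophageal squamous cancer cell line that expresses the lineage transcription factor SOX2 at a high level. The members were the 4 RNA-seq libraries of this experiment out of 17 in the series, picked by their sample titles. 2 libraries (A and B) came from cells treated with 0.5 µM ARV-771 for 6 h and 2 (A and B) from cells given the solvent DMSO for 6 h. None of the 4 was labelled with a CRISPR construct. The labels do not say whether A and B were separate cultures, so each test below measures the spread between these libraries only. All 4 came from a single cell line, a single dose and a single time. Cells, spike-in RNA and total RNA per cell were not part of the tables used here.

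ARV-771 is a bifunctional molecule that joins a ligand of BET bromodomains to a ligand of an E3 ubiquitin ligase, so that BET proteins are ubiquitinated and broken down by the proteasome. BET proteins bind acetylated histones at enhancers and promoters and help RNA polymerase II pass from pausing into elongation, in part through the kinase complex P-TEFb (CDK9 with cyclin T). When elongation is blocked, the level of each existing mRNA follows its own rate of decay, so mRNAs that turn over fast are lost first. In squamous cells, BET-bound enhancers are known to serve lineage factors such as SOX2, TP63 and KLF5.

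The libraries held 11474524 and 11572505 expected counts with DMSO and 10602155 and 13556938 with ARV-771. At this depth a floor of 3 counts, a limit for counting error only, equalled 0.221 to 0.283 CPM (library-scaled counts). Genes at 1 TPM (the length-scaled share of a gene among all transcripts of a library) or more numbered 13635 and 13612 with DMSO and 11920 and 12055 with ARV-771. The squamous identity of the cells was checked against 10 epithelial markers, all of which were expressed. Under TMM, defined below, 5 of them rose with ARV-771 (50%, against 21.2% of all genes) and 3 were not called. The 2 that fell (20%, against 31.7%) were TP63 and SFN, described below. KRT5, a basal keratin, stood at 3221 and 3420 TPM with DMSO and 3000 and 3190 TPM with ARV-771. It was among the 5 called risen under TMM (log2 fold change 0.63), although its TPM was lower in both ARV-771 libraries. Of 15 markers of fibroblasts, blood, endothelium, neuroendocrine and liver cells found in the tables, only 4 had enough counts to be tested. The summed level of the 15 was 18.1 to 19.3 TPM with DMSO and 17.7 to 19.4 TPM with ARV-771, most of it from COL1A1, a collagen gene. PTPRC, CDH5 and CHGA, which define blood, endothelial and neuroendocrine cells, were at 0 in all 4 libraries. CD68, a lysosomal marker of macrophages, was the 1 marker called, at 0.44 and 0.36 TPM with DMSO and 1.83 and 2.91 TPM with ARV-771, against 0.84 to 3.93 TPM in the control libraries of the other KYSE140 experiments.

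RNA-seq values are shares of a library, and the size and sign of small changes in this comparison depended on the scaling. Of 13500 genes tested, TMM scaling in edgeR's quasi-likelihood test gave 2857 risen (21.2%) and 4279 fallen (31.7%). A gene was called when its adjusted p (Benjamini-Hochberg) stayed below 0.05 and its level differed by more than 1.5-fold, which 52.9% of the genes met in either direction. The median log2 fold change over all genes was -0.04. With library size only it was -0.50, with 381 genes risen (2.82%) and 6076 fallen (45%). Scaled to ACTB and HPRT1, it was -0.68, with 146 risen (1.08%) and 6936 fallen (51.4%). Scaled to the 13 mitochondrially encoded mRNAs, which are made by a separate polymerase, it was -1.04, with 88 risen (0.652%) and 8985 fallen (66.6%). In the same order of scalings, risen genes were 40%, 5.9%, 2.06% and 0.97% of all called genes. The tables cannot say which scaling is nearest to RNA per cell, and a lower level from fewer cells and from less RNA in each cell cannot be told apart. Below, "rose" and "fell" refer to the TMM test unless another scaling is named, and every log2 fold change is ARV-771 against DMSO. TPM values carry no TMM factor, so a gene can be lower in TPM and still have a positive log2 fold change under TMM. For the same reason a fall looks larger in TPM than in the TMM value beside it.

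**Figure D1:**
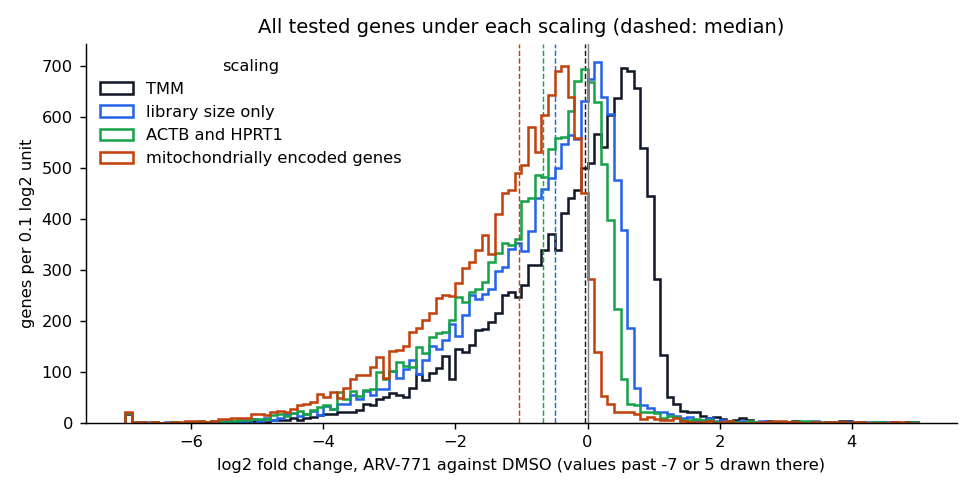
Distribution of log2 fold changes (x axis) over the 13500 tested genes, counted per 0.1 log2 unit (y axis), under 4 scalings, with each median dashed. All 4 curves have a long left tail, and the median moves from -0.04 with TMM to -1.04 with mitochondrial scaling.

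The response was lopsided among large changes under TMM too. Falls of over 4-fold were called for 1239 genes (9.18%) and rises of over 4-fold for 73 (0.541%). Past 2-fold there were 3168 falls (23.5%) and 641 rises (4.75%), past 8-fold 396 falls (2.93%) and 35 rises, and past 16-fold 106 falls and 20 rises. In TPM, the 2 groups did not overlap for 11248 of the tested genes (83.3%), so a lack of overlap is the usual state of a gene in this comparison.

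SOX2, a lineage oncogene that is often amplified in squamous cancers, was among the most abundant mRNAs that fell. It stood at 236 and 223 TPM with DMSO and at 9.80 and 10.5 TPM with ARV-771. Both treated libraries were far below both controls. The log2 fold change was -3.77 ± 0.07 (SE, n = 2 against 2, adjusted p = 1.9e-22 in edgeR), a 13.6-fold fall, and it was -4.77 with mitochondrial scaling. SOX2 has 1 exon, at chr3:181429713-181432224 (GRCh37, plus strand), within an intron of the long noncoding gene SOX2-OT. SOX2-OT transcripts went from 61.3 and 54.2 TPM to 21.2 and 20.1 TPM, a log2 fold change of -0.86 ± 0.08 (adjusted p = 9.8e-10), which is a smaller fall than that of SOX2. In the 4 control libraries of the CRISPR experiments in KYSE140, SOX2 was at 365 to 428 TPM, above both DMSO libraries, so its starting level differed between the experiments.

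The list of squamous and epithelial transcription factors also held the noncoding gene SOX2-OT, which fell. Of its 30 tested members, 26 fell and 1 rose, against 31.7% fallen among all genes, and 19 fell more than 4-fold, against 9.18%. The list median was -2.23 under TMM and -3.22 with mitochondrial scaling. TP63, the master factor of basal squamous cells, went from 145 and 153 TPM to 29.6 and 32.3 TPM (log2 fold change -1.48 ± 0.05, adjusted p = 4.6e-17). KLF5, a zinc-finger factor of squamous and gut epithelium, went from 40.6 and 42.7 TPM to 3.82 and 5.62 TPM (-2.50 ± 0.09, adjusted p = 4.2e-17). The groups were separate for both genes, and SOX2 fell further than either in log2 terms.

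Other members fell as well. ZNF750, a factor of epidermal differentiation, fell by 3.69 on the log2 scale from a low level of 0.65 to 1.06 TPM. GRHL3 (-3.32), a grainyhead factor of barrier formation, KLF4 (-3.28), a factor of terminal differentiation, SOX4 (-3.04) and TBX3 (-3.03) also fell, each without overlap between groups. The exception was SOX15, whose TPM groups overlapped (8.19 and 9.04 against 10.7 and 7.46) although it passed the TMM test at 0.77 ± 0.23. That call rested on ARV-771 library A, without which the value was 0.49.

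**Figure D2:**
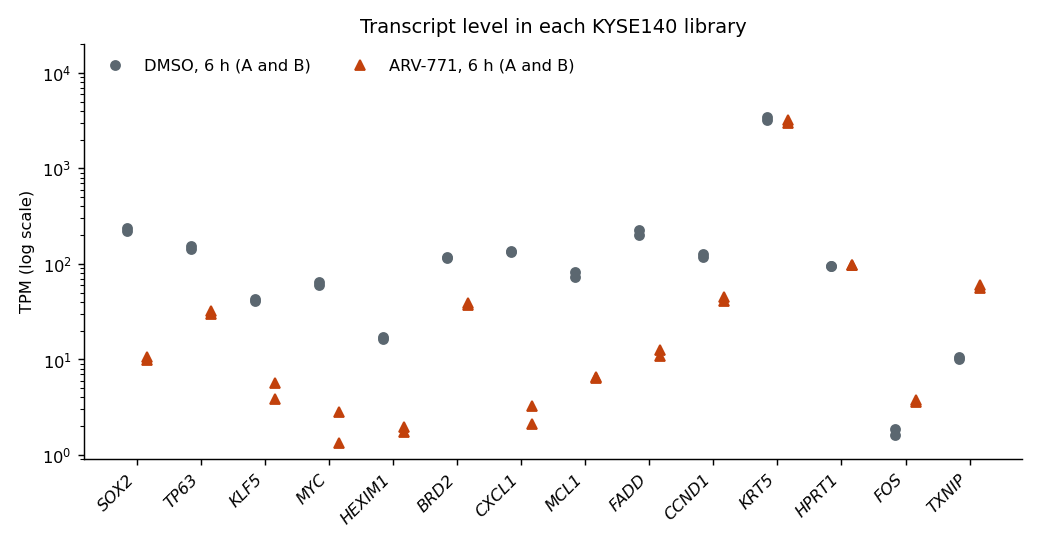
TPM on a log axis (y) in each of the 4 libraries for 14 genes (x), with circles for DMSO and triangles for ARV-771. SOX2 drops from 236 and 223 TPM to 9.80 and 10.5 TPM, KRT5 and HPRT1 stay near their DMSO level, and TXNIP and FOS are higher in both ARV-771 libraries.

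Of 15 BET genes and regulators of P-TEFb, 11 fell (73.3%, against 31.7% of all genes) and none rose, with a median of -1.24 (-2.24 with mitochondrial scaling). The 4 not called were CDK9, LARP7, BRDT (0.31 ± 0.07) and SERTAD1 (-0.27 ± 0.17). HEXIM1, which holds P-TEFb inactive in the 7SK RNA particle, went from 17.1 and 16.5 TPM to 1.95 and 1.73 TPM. Its log2 fold change was -2.48 ± 0.11 (adjusted p = 1.2e-15). Its relative HEXIM2 fell by 3.38 and MEPCE, which caps 7SK RNA, by 2.40, whereas LARP7, the protein that binds the 3′ end of 7SK, was at 38.6 and 34.03 TPM and then 32.6 and 30.6 TPM (0.57 ± 0.08, not called, but called at 0.62 without DMSO library A and at 0.67 without ARV-771 library B). The cyclin T genes CCNT2 (-1.80) and CCNT1 (-1.57) and the elongation factors ELL (-2.23) and ELL2 (-1.79) fell. The kinase gene CDK9 itself was not called (-0.49 ± 0.11), but it was without DMSO library B (-0.64).

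The mRNAs of the BET proteins were lower as well. BRD2 went from 119 and 115 TPM to 37.5 and 39.1 TPM (-0.94 ± 0.06, adjusted p = 4.2e-13) and BRD3 from 16.8 and 13.8 TPM to 5.17 and 5.23 TPM (-0.85 ± 0.09, adjusted p = 9.2e-09), with no overlap. These values concern mRNA, and protein was not measured here. Elongation factors and Mediator subunits as a wider list were mixed, with 8 of 26 fallen (30.8%, near the 31.7% of all genes), 4 risen and a median of -0.16. MED17, a head subunit of Mediator, fell furthest (-3.24 ± 0.16), and CDK12, a kinase of elongating polymerase, followed (-1.70). Of 9 genes for subunits of E3 ligases recruited by degraders, 4 rose under TMM (44.4%, against 21.2% of all genes) and 1 fell, with a median of 0.46 that was -0.54 with mitochondrial scaling. TCEB2, an elongin subunit of the VHL ligase, had the highest value (1.05 ± 0.07, and 0.05 with mitochondrial scaling, not called there). VHL was the one called fallen (-0.68 ± 0.10, and not called at -0.56 without DMSO library B) and CRBN did not pass the test (-0.16 ± 0.11).

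In the MYC network, MYC, the transcription factor most closely tied to BET inhibition in other tumours, went from 60.4 and 64.3 TPM to 1.33 and 2.79 TPM. Its log2 fold change was -4.75 ± 0.13 (adjusted p = 1.1e-19), a 26.8-fold fall, with no overlap. Its paralog MYCL fell by 2.55 and its partner MAX by 1.13. In all, 10 of 16 network genes fell (62.5%, against 31.7% of all genes) and 2 rose (12.5%, against 21.2%), with a median of -1.06. MXD1 (-1.45) and MNT (-1.02), repressors that compete with MYC for MAX, fell, as did MGA (-1.97).

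TXNIP, a glucose-responsive arrestin that restrains glucose uptake and is driven by MondoA with MLX, moved the other way. It was at 10.5 and 10.1 TPM with DMSO and at 56.1 and 60.3 TPM with ARV-771, so that both treated libraries lay above both controls. Its log2 fold change was 3.14 ± 0.08 (adjusted p = 7.8e-20), and it was 2.14 with mitochondrial scaling, where it was still called risen. The other arrestin genes of the list did not rise with it. ARRDC3 fell by 3.42 and ARRDC2 by 2.82, and ARRDC4, which shares its MondoA control with TXNIP in other cells, was at 5.35 and 6.02 TPM and then 2.71 and 2.43 TPM (-0.43 ± 0.15, not called).

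Immediate early genes encode mRNAs that are made within minutes of a stimulus and decay fast. Of 33 tested, 26 fell (78.8%, against 31.7% of all genes) and 1 rose (3.03%, against 21.2%), with a median of -1.89. BTG2, an antiproliferative gene, went from 6.40 and 6.98 TPM to 0.12 and 0.29 TPM (-4.13 ± 0.32, adjusted p = 2.0e-11). SGK1, a kinase induced by serum and glucocorticoid, went from 25.1 and 24.5 TPM to 0.82 and 1.25 TPM (-4.07 ± 0.17, adjusted p = 3.3e-16). The groups did not overlap for either. Among AP-1 subunits, FOSL2 fell by 3.10, JUNB by 2.00, FOSL1 by 1.84 and JUND by 1.26.

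FOS stood apart. It was low with DMSO, at 1.87 and 1.62 TPM, and higher with ARV-771, at 3.63 and 3.81 TPM, without overlap (1.90 ± 0.27, adjusted p = 1.0e-06). The rise was also called with mitochondrial scaling (0.90), and it rested on 32 and 21 counts against 69 and 82. In the other KYSE140 control libraries FOS was at 2.51 to 3.96 TPM, so the treated level lay within the range of untreated cells of the line. JUN, its partner, was at 12.1 and 12.2 TPM and then 7.74 and 10.4 TPM, and was not called under TMM (0.31 ± 0.11).

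Genes for inhibitors that damp signalling were the list with the lowest median, -2.37 (-3.36 with mitochondrial scaling), with 34 of 36 fallen (94.4%, against 31.7% of all genes) and none risen. The MAPK phosphatases DUSP2 (-4.43 ± 0.71), DUSP10 (-3.91 ± 0.58) and DUSP6 (-3.87 ± 0.20) fell, as did the Sprouty genes SPRY1 (-4.40 ± 0.73) and SPRY2 (-4.30 ± 0.27), which restrain receptor tyrosine kinases. SPRY2 went from 11.7 and 11.6 TPM to 0.49 and 0.26 TPM. SOCS1, an inhibitor of JAK kinases, fell by 3.31, and SMAD7, an inhibitor of TGF-β receptors, by 2.91. The 2 not called were the Notch targets HES1 and HES4, at 0.17 ± 0.09 and 0.32 ± 0.09, which were named after their values were seen.

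Of the NF-κB targets and cytokines, 11 of 25 were expressed enough to be tested and 8 of these fell (72.7%, against 31.7% of all genes), with a median of -1.67. CXCL1, a neutrophil chemokine, went from 138 and 132 TPM to 3.24 and 2.11 TPM (-5.05 ± 0.14, adjusted p = 1.8e-19), a 33.1-fold fall. NFKBIE, an inhibitor of NF-κB, fell by 4.50 and REL, a subunit of it, by 3.22. Of 31 growth factors and receptors, 13 fell (41.9%, against 31.7% of all genes) and 1 rose, and 9.68% fell more than 4-fold, near the 9.18% of all genes. The list median was -0.39. The ligand genes PDGFB (-3.00), EFNB2 (-2.92), PDGFA (-2.37) and WNT7A (-1.80) had the lowest values, and VEGFA, the main factor of vessel growth, fell by 1.71.

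Among apoptosis regulators, 20 of 30 fell (66.7%, against 31.7% of all genes) and 3 rose, with a median of -0.83, and the falls took in genes that promote and genes that oppose cell death. FADD, the adaptor of death receptors, went from 227 and 199 TPM to 10.9 and 12.7 TPM (-3.44 ± 0.09, adjusted p = 4.9e-20). MCL1, a survival gene of the BCL2 family with a short-lived mRNA, went from 73.4 and 81.5 TPM to 6.37 and 6.58 TPM (-2.91 ± 0.08, adjusted p = 8.4e-20). Neither gene showed overlap. The BH3-only genes BMF (-3.24) and BCL2L11 (-2.27), which promote death, also fell, as did APAF1 (-1.82).

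Of 27 regulators of the G1 phase, 14 fell (51.9%, against 31.7% of all genes) and 2 rose, with a median of -0.59. CDC25A, the phosphatase that activates CDK2, fell by 3.99, the transcription factor gene E2F8 by 3.23 and the cyclin gene CCNE1 by 3.06. CCND1, the cyclin D gene co-amplified with FADD in many squamous tumours, went from 128 and 118 TPM to 45.2 and 41.0 TPM, a smaller fall than that of FADD (-0.81 ± 0.05, adjusted p = 6.4e-13). By contrast, replication and mitosis genes were close to the median of all genes at 0.09. Of 37, 6 fell (16.2%, against 31.7% of all genes) and 5 rose (13.5%, against 21.2%). With mitochondrial scaling 29 of the 37 fell, against 66.6% of all genes, and the median was -0.91. The mitotic kinase gene AURKA fell the most (-1.74 ± 0.10).

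Clock genes and the PAR bZIP family fell in 10 of 17 cases (58.8%, against 31.7% of all genes) with none risen (median -1.03), with NFIL3 (-2.86), PER2 (-2.80) and TEF (-2.24) lowest. Of 27 amino acid transport and ATF4 genes, 11 fell (40.7%, against 31.7% of all genes) and 3 rose, with a median of -0.29. SLC38A2, a neutral amino acid transporter with a fast-decaying mRNA, went from 108 and 111 TPM to 6.58 and 6.37 TPM (-3.63 ± 0.07, adjusted p = 2.5e-22). The groups were far apart. CHAC1, a glutathione-degrading enzyme, fell by 3.46 and CEBPB, a bZIP factor, by 2.74.

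Genes with ZNF symbols, most of which encode zinc-finger DNA-binding proteins, were the largest family that fell. Of 414 tested, 345 fell (83.3%, against 31.7% of all genes) and 3 rose, and 187 fell more than 4-fold (45.2%, against 9.18%). The median was -1.85 under TMM and -2.85 with mitochondrial scaling. Their summed level was 4087 and 4046 TPM with DMSO and 1507 and 1534 TPM with ARV-771. ZNF217, an oncogene of chromosome 20, went from 11.1 and 11.6 TPM to 0.36 and 0.52 TPM (-4.25 ± 0.17, adjusted p = 2.4e-16). Of the 414, 229 had whole expected counts in all 4 libraries, which is a sign that no reads were split with a similar gene, and the median of these was -1.99.

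**Figure D3:**
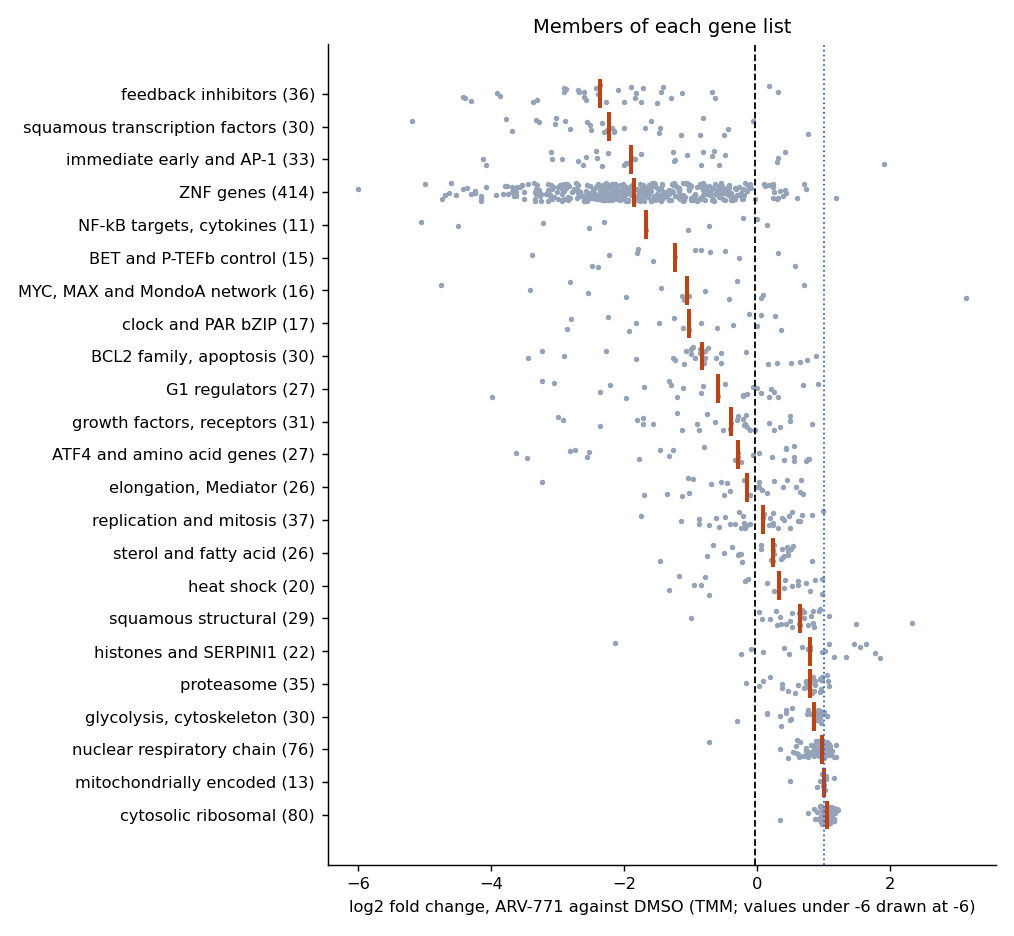
Log2 fold change under TMM (x axis) of every tested member (points) of 23 gene lists (y axis, tested members in brackets), ordered by list median (bars). The dashed line is the median of all genes at -0.04 and the dotted line marks no change under mitochondrial scaling, at 1.00. Feedback inhibitors, squamous transcription factors and immediate early genes lie lowest, and ribosomal and respiratory chain genes cluster at the dotted line.

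Heat shock genes (7 of 20 risen, 6 fallen), sterol and fatty acid synthesis genes (1 of 26 risen, 3 fallen), long noncoding RNAs (4 of 18 risen, 5 fallen) and snoRNA host genes (4 of 17 risen, 5 fallen) had medians from -0.07 to 0.33 under TMM, and from -1.06 to -0.67 with mitochondrial scaling. In that order the fallen shares were 30%, 11.5%, 27.8% and 29.4%, against 31.7% of all genes. The risen shares were 35%, 3.85%, 22.2% and 23.5%, against 21.2% of all genes. The housekeeping programmes formed the other end of the distribution. Of 80 cytosolic ribosomal protein genes, 79 rose under TMM (98.8%, against 21.2% of all genes). Their median was 1.05 and their range 0.35 to 1.21. With mitochondrial scaling the same genes had a median of 0.06, with none risen and 1 fallen. Their summed level was 197860 and 190514 TPM with DMSO and 246025 and 243367 TPM with ARV-771. Genes of the nuclear respiratory chain behaved alike, with 71 of 76 risen under TMM (93.4%, median 0.97) and none risen with mitochondrial scaling (median -0.03). The 13 mitochondrially encoded mRNAs had a TMM median of 1.00. Proteasome genes (27 of 35 risen, 77.1%, median 0.80) and genes of glycolysis and the cytoskeleton (20 of 30 risen, 66.7%, median 0.86) had medians of -0.20 and -0.14 with mitochondrial scaling. Whether these mRNAs rose, or kept their level while others were lost, cannot be told apart without a measure of RNA per cell.

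ACTB and HPRT1, used as reference genes for RT-qPCR in the study, illustrate this. HPRT1 was at 94.6 and 94.3 TPM with DMSO and 96.5 and 96.2 TPM with ARV-771, a log2 fold change of 0.76 ± 0.06 under TMM and -0.24 with mitochondrial scaling. ACTB was at 3599 and 3412 TPM and then 3060 and 3133 TPM (0.52 ± 0.04, not called).

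Squamous structural genes had a different distribution from the squamous transcription factors at 6 h. Of 29 tested, 17 rose under TMM (58.6%, against 21.2% of all genes) and 1 fell (3.45%, against 31.7%). The median was 0.64, which was -0.35 with mitochondrial scaling. SFN, a 14-3-3 protein of epithelia whose gene has 1 exon, was the one that fell, from 446 and 442 TPM to 134 and 135 TPM (a 1.99-fold fall under TMM, SE 0.05 on the log2 scale, adjusted p = 1.3e-14). KRT6B, a keratin of activated epidermis, was called risen with every scaling of the counts (2.33 ± 0.37 under TMM and 1.34 with mitochondrial scaling), although it was low and its reads can be shared with other keratin genes. S100A2, a calcium-binding protein of basal cells, was at 3875 and 3561 TPM and then 4881 and 4824 TPM (1.08 ± 0.04).

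Histone genes with polyadenylated transcripts are often reported to go up when BET proteins are inhibited. The list of 22 tested genes held histone genes together with SERPINI1 and ZCCHC24, which serve as readouts of BET inhibition. Of these, 15 rose under TMM (68.2%, against 21.2% of all genes) and 1 fell (median 0.79). The one that fell was ZCCHC24, which is not a histone gene, from 0.72 and 1.05 TPM to 0.09 and 0.23 TPM (-2.14 ± 0.47). With mitochondrial scaling 2 rose and the median was -0.21. HIST1H2BD went from 25.2 and 23.3 TPM to 42.2 and 41.7 TPM (1.63 ± 0.15, adjusted p = 4.2e-10, and 0.64 with mitochondrial scaling, called risen in both). HIST1H2BK went from 100.4 and 112 TPM to 161 and 166 TPM (1.45 ± 0.07, and 0.45 with mitochondrial scaling, not called). HIST2H2AA3 (1.77 ± 0.35) was the other gene called risen under both. Histone genes are near-identical in parts, so their counts are uncertain where reads were split. SERPINI1, a serpin gene, rose under TMM (0.98 ± 0.13) and had a value of -0.02 with mitochondrial scaling.

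Among genes with whole counts and a mean of at least 10 TPM with DMSO, the deepest falls included secreted factors. EDN1, the precursor of the peptide endothelin-1, went from 33.0 and 35.7 TPM to 0.56 and 0.54 TPM (-5.23 ± 0.18, adjusted p = 1.7e-17). DKK1, a Wnt antagonist, went from 51.1 and 44.2 TPM to 2.10 and 0.85 TPM (-5.04 ± 0.18), and ADM, the precursor of adrenomedullin, from 113 and 96.6 TPM to 2.08 and 2.01 TPM (-4.97 ± 0.13). CXCL1, MYC, SPRY2, ZNF217 and SGK1, given above, were also among the 15 deepest. Further genes among them were TMEM100 (-4.83 ± 0.34), TIGD5 (-4.43 ± 0.28), FAM212A (-4.24 ± 0.40), RGS2, a regulator of G-protein signalling (-4.14 ± 0.27), KTI12 (-4.08 ± 0.30) and IRF2BPL (-4.07 ± 0.11). The 2 groups of libraries did not overlap for any of these, which the rule for naming them required.

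Ranked by abundance, the mRNAs with whole expected counts and the highest mean DMSO level among falls of over 4-fold were SOX2, FADD, CXCL1, PTHLH, EFNB2, ARF6, AJUBA, SLC38A2, ADM and PDGFA. NEDD9, a scaffold protein of cell adhesion that was chosen after its values were seen, lay in the same range but had counts that were not whole, and went from 106 and 106 TPM to 3.42 and 3.37 TPM (-4.27 ± 0.07). PTHLH, the parathyroid hormone-like hormone of squamous tumours, went from 125 and 124 TPM to 9.76 and 14.3 TPM (-2.67 ± 0.10). ARF6, a small GTPase of membrane traffic, went from 116 and 121 TPM to 10.2 and 10.4 TPM (-2.80 ± 0.09), and AJUBA, a LIM protein of cell junctions, from 121 and 111 TPM to 12.9 and 11.5 TPM (-2.49 ± 0.06). If such falls had been exponential from the time of addition, the level of SOX2 would have halved every 1.59 h under TMM or 1.26 h with mitochondrial scaling. The same arithmetic gives 1.26 h and 1.05 h for MYC, 2.06 h and 1.54 h for MCL1, and 4.04 h and 2.42 h for TP63. These are restatements of the fold change at 6 h, and no decay rate was measured. By RT-qPCR, the study reported only a partial loss of SOX2 at an earlier time of the same treatment. That loss was smaller than the SOX2 halving times above would give, so they should not be read as its turnover. It was a loss of total SOX2 RNA, old and new together. For the same early time, the study reported that most newly transcribed SOX2 RNA was lost. The authors proposed that most of the SOX2 RNA still present then may predate the drug. From RNA-seq at the later time, they reported a loss of most SOX2 expression.

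Few genes rose under every scaling. Of the 88 genes called risen with mitochondrial scaling, 51 are protein-coding and 67 had a mean under 10 TPM with ARV-771. Only 7 had whole counts, a mean of at least 10 TPM with ARV-771, no overlap and a call under TMM, library size and mitochondrial scaling alike. TXNIP was the most abundant protein-coding gene of the 7. AMH, the gene for anti-Müllerian hormone, went from 4.24 and 6.29 TPM to 9.82 and 10.7 TPM (1.74 ± 0.18, and 0.74 with mitochondrial scaling). HIST1H2AE, a histone gene, went from 5.10 and 2.40 TPM to 11.6 and 9.14 TPM on 15 and 7 against 38 and 38 counts. The others were short or noncoding RNAs that poly(A) selection captures poorly. MIR663A had 3 and 2 counts with DMSO and 79 and 136 with ARV-771, and RPPH1, the RNA of RNase P, 14 and 2 against 26 and 37. MIR3648 had 0 counts in both DMSO libraries and 18 and 24 with ARV-771, at least 9.17-fold higher when compared with a floor of 3 counts per library under TMM and at least 4.59-fold with mitochondrial scaling. The last of the 7 was a ribosomal RNA pseudogene, which shares its sequence with many copies and is not described. RN7SK, the 7SK RNA that holds P-TEFb with HEXIM1, was chosen after its values were seen. It had 9 and 8 counts with DMSO and 31.0 and 32.0 with ARV-771 (2.27 ± 0.43, and 1.28 with mitochondrial scaling), with reads shared with similar genes, and its level in the other control libraries ranged from 9.20 to 64.0 TPM.

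Falls were unevenly spread over gene structures. GENCODE release 44 mapped to GRCh37 gave exon counts for 11999 of the 12064 protein-coding genes tested. Of 221 genes with 1 exon in the canonical transcript, 42.5% fell more than 4-fold, and the median was -1.63. For 553 genes with 2 exons it was 38.9% (median -1.51), for 2495 with 3 to 5 exons 16.4%, for 3569 with 6 to 10 exons 7.17%, for 3488 with 11 to 20 exons 3.73% and for 1673 with more than 20 exons 1.2% (median 0.12). The share over all protein-coding genes was 9.35%. SOX2, HEXIM1, JUNB, SOX4 and SFN are examples with 1 exon. The order held within genes of similar length: among the shortest 3016 genes, those with 1 or 2 exons had a median of -1.49 (n = 572) and those with over 5 exons 0.42 (n = 1311), and in the longest class the values were -1.39 (n = 33) and -0.07 (n = 2745). Without the ZNF genes the medians for 1 or 2 exons and for over 5 exons were -1.52 and 0.08, and with whole counts only -1.70 and 0.05. These are descriptions over genes, which are not replicates, and exon number was not compared with gene function or with 3′ UTR length.

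**Figure D4:**
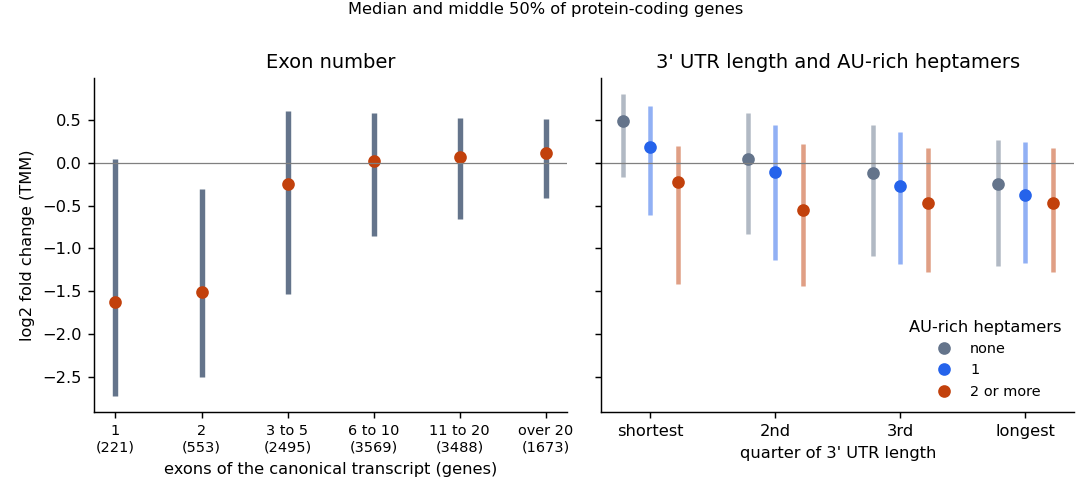
Median log2 fold change under TMM (points) and middle 50% of genes (bars) by exon number (left) and by class of 3′ UTR length, divided by the number of AU-rich heptamers (right). The median climbs from -1.63 with 1 exon to 0.12 with more than 20, and within each class of length the genes with 2 or more heptamers lie lowest.

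AU-rich elements are stretches of the 3′ UTR, the part of an mRNA after its stop codon, that hold the pentamer ATTTA and mark many short-lived mRNAs for decay. The 3′ UTR of the canonical transcript was available for 11943 genes, divided into 4 classes of equal number at 538, 1351 and 2803 bases. The median log2 fold change was 0.47, -0.01, -0.22 and -0.38 from the shortest to the longest class. The heptamer TATTTAT, counted on the transcribed strand with overlaps, was absent from 7600 of these UTRs (median 0.14), present in 1 copy in 2455 (-0.24) and in 2 or more copies in 1888 (-0.47). In the shortest class the medians were 0.49 without it (n = 2699), 0.18 with 1 copy (n = 255) and -0.22 with 2 or more (n = 33). In the longest class they were -0.25, -0.38 and -0.47, so copy number went with lower medians in both, by less in long UTRs. Falls of over 4-fold followed this order less closely. From the shortest to the longest class their share was 4.95%, 10.8%, 11.1% and 10.8%. In the shortest class it was 4.59% without the heptamer, 7.84% with 1 copy and 12.1% with 2 or more. In the longest class it was 10.9%, 8.74% and 12.2%.

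To show what such sites look like, the 30 bases with the most ATTTA pentamers (capitals) are given for 6 named genes, read 5′ to 3′ on the transcribed strand of GRCh37. They were chosen to include FOS, which rose, beside genes that fell from high levels.
FOS: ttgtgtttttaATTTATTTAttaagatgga
CXCL1: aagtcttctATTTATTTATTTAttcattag
IER3: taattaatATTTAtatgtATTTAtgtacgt
EDN1: tagatATTTAtattcaaacaATTTAttcct
VEGFA: gttaatATTTAatttcaactATTTAtgaga
MCL1: gacctaATTTAactggtgaaATTTAaagtg
These windows lie at chr14:75748760-75748789 (plus strand) for FOS, chr4:74736390-74736419 (plus) for CXCL1, chr6:30711425-30711454 (minus) for IER3, chr6:12297249-12297278 (plus) for EDN1, chr6:43753608-43753637 (plus) for VEGFA and chr1:150548693-150548722 (minus) for MCL1. The FOS UTR of 806 bases held 5 ATTTA pentamers and 2 heptamers, and the CXCL1 UTR of 772 bases held 6 and 4. FOS therefore rose (1.90) with a site like that of CXCL1, which fell (-5.05). IER3, an early response gene, had 6 pentamers and 4 heptamers in 737 bases and went from 67.2 and 65.2 TPM to 6.74 and 8.13 TPM (-2.41 ± 0.12). A match to these letters is a description of the sequence, and binding of a decay factor was not measured.

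The promoters of 2 genes that rose and 2 that fell are shown as the 250 bases before the start site, from RefSeq on GRCh38.p14, with matches on either strand to 4 motifs in capitals. They were the TATA box (TATAAA), the site of the factor NF-Y (CCAAT), the E-box bound by MYC with MAX (CACGTG) and the box that MondoA with MLX binds in pairs at TXNIP (CACGAG).
TXNIP: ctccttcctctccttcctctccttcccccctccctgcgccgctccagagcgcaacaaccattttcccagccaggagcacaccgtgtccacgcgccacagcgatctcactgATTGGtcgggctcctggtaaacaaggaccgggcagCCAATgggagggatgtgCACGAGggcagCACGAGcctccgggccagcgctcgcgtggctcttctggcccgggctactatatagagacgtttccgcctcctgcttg
FOS: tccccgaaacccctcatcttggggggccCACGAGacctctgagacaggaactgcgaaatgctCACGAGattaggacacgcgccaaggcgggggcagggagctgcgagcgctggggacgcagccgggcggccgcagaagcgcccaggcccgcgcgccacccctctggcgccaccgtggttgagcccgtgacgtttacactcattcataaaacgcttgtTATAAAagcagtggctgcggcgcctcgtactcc
SOX2: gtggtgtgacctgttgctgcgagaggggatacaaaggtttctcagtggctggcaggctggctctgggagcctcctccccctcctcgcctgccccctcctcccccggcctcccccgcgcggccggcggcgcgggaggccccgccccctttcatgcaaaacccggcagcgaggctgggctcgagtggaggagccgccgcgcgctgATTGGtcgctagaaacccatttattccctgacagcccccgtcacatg
HEXIM1: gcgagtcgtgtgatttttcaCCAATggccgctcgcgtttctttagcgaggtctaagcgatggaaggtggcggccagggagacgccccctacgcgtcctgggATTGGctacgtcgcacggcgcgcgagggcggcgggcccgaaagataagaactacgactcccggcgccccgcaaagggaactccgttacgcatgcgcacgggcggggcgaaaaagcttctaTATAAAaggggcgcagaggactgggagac
The windows are chr1:145996580-145996829 (minus strand) for TXNIP, chr14:75278578-75278827 (plus) for FOS, chr3:181711675-181711924 (plus) for SOX2 and chr17:45148225-45148474 (plus) for HEXIM1. TXNIP and FOS each held 2 copies of CACGAG, and SOX2 and HEXIM1 held 0. The copies lay close together in TXNIP and much further apart in FOS, so FOS did not show the same pair. The 4 windows were picked by direction of change, and binding of MondoA was not tested. TATAAA was present once in FOS and once in HEXIM1. None of the 4 windows held CACGTG. Over the first listed promoter of 27305 genes, windows of the same length held CACGAG in 5.62%, CACGTG in 6.49%, TATAAA in 11.1% and CCAAT in 33%. A comparison of motif shares between fallen and risen genes was void, because only 9472 of the 13500 genes tested (70.2%) had a promoter sequence in the table.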

How the data were processed

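RNA-seq libraries of KYSE140 cells were aligned and quantified by the authors with Bowtie2 and RSEM against hg19, as named in the submitters' processing notes, with no versions given in the sources used here. Per the file headers, the deposited values are expected counts (estimated, need not be whole), TPM, effective lengths and FPKM per gene. FPKM and the libraries of the other cell line were not used. Expected counts were rounded and tested in edgeR 4.0.16 in R 4.3.3 with the quasi-likelihood test, filterByExpr defaults and TMM, 2 against 2 libraries. SEs were derived from the log2 fold change and its F value. A call needed a Benjamini-Hochberg adjusted p below 0.05 together with a change of more than 1.5-fold. TPM per library is shown beside each test. DESeq2, limma on log2(TPM + 1) and log2(TPM + 0.1), other scalings, filters and fold limits, all 13 KYSE140 libraries, leaving out each library in turn and a replicate block were alternatives. The steps were tested on simulated data in which only a small set of genes changed. Such data cannot test the choice of scaling for a response as wide as this one.

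The members, gene lists and rule for named genes were chosen with earlier results of these data known. Up to 8 called members per list with the largest change were named, with readout genes such as MYC, HEXIM1, SOX2, TP63, KLF5, BRD2, BRD3, FOS, JUN, TXNIP, MCL1, CCND1, ACTB and HPRT1. Beside these, the 15 deepest falls from a mean of at least 10 TPM, the rises called under 3 scalings at a mean of 10 TPM or more (at most 15) and the 10 most abundant falls of over 4-fold were named, each with whole counts and no overlap. Some genes that met these rules are not reported here. KRT5, S100A2, COL1A1 and the genes at 0 were named to describe the cells. Gene positions, exons and 3′ UTRs came from GENCODE release 44 on GRCh37, which matched 55538 of 57820 genes.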

Additional observations from a re-analysis of the deposited data

How the results depend on the processing

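The balance of risen and fallen genes depended on the scaling. Against 2857 risen and 4279 fallen genes with TMM, the number risen was 381 with library size only, 88 with mitochondrial scaling, 146 with ACTB and HPRT1, 122 with limma on log2(TPM + 1), 113 on log2(TPM + 0.1) and 162 on log2(TPM + 1) with no filter. It was 4788 with no minimum fold and 641 past 2-fold. The number fallen was 8985 with mitochondrial scaling and 6936 with ACTB and HPRT1, and stayed within 1.5 times of the TMM count under the other alternatives. The edgeR exact test, DESeq2, RLE factors, both count filters and all 13 KYSE140 libraries kept both counts within 1.5 times. Leaving out each library gave 2735 to 2793 risen and 4100 to 4134 fallen. The letters A and B did not pair the libraries (correlation of deviations -0.03 over 10855 genes), and a replicate block gave 2830 risen and 4260 fallen. Among named genes called with TMM or with mitochondrial scaling, signs turned with the latter for BRDT (-0.69), COL1A1 (-0.63), HES1 (-0.83), HES4 (-0.67), HPRT1 (-0.24), JUN (-0.68), SERPINI1 (-0.02), SOX15 (-0.22) and KRT5 (-0.37). They also turned for LARP7 (-0.43) and ACTB (-0.49), which were called with neither. KRT5 was also at -0.01 with ACTB and HPRT1 and at -0.10 with each limma fit. With mitochondrial scaling the list medians turned for E3 ligase subunits (-0.54), squamous structural genes (-0.35), replication and mitosis (-0.91), histones (-0.21), sterol synthesis (-0.76), heat shock (-0.67), snoRNA hosts (-0.98), glycolysis and cytoskeleton (-0.14), reference genes (-0.28), squamous markers (-0.51), other markers (-0.27), respiratory chain (-0.03) and proteasome (-0.20). With ACTB and HPRT1 they turned for E3 ligase subunits (-0.18), replication and mitosis (-0.55), sterol synthesis (-0.40), heat shock (-0.31), snoRNA hosts (-0.62) and squamous markers (-0.15). With library size only they turned for replication and mitosis (-0.37), sterol synthesis (-0.22), heat shock (-0.13) and snoRNA hosts (-0.44), and with whole counts only for heat shock (-0.14), long noncoding RNAs (0.14) and squamous markers (-0.32). The scalings change only the factor by which each library is divided, which moved SOX2 by about as much as the median gene and genes at or near 0 counts by less. The limma fits took TPM with no TMM factor, so they too differed from the main test in scaling. How much of their difference came from scaling was not tested, and neither was the cause for the whole-count values. Depth limits genes such as DUSP2, SPRY1 and ZNF750, which had 0 to 2 counts with ARV-771.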
